A study of Mus musculus with 6 samples.

Results

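The shelterin and telomerase genes were examined in the oocyte transcriptome of naturally aged mice. They were the 10 genes Terf1, Terf2, Terf2ip, Tinf2, Acd, Pot1a, Pot1b, Tert, Dkc1 and Rtel1, taken by symbol from the 25631 genes of the deposited table, and 10 of the 10 were found there. RNA was sequenced from oocytes of female ICR mice aged 14 months, released by puncturing large antral follicles after an injection of equine chorionic gonadotropin, which drives follicle growth. In the aminophylline group (n = 3 libraries), the oocytes were from mice whose drinking water held 4 mM aminophylline, a nonspecific phosphodiesterase inhibitor, for 1 week, followed by 3 weeks of water alone. In the control group (n = 3 libraries) they were from mice of the same age that drank water without aminophylline, and GEO labels these libraries as untreated and aged. The number of mice and oocytes per library, and whether the libraries came from separate mice are not given in the sources used here, so p-values measure the spread between these libraries, which may be technical. Values are FPKM, which are fragment counts divided by transcript length and by the total of the library, so the levels of different genes can be set side by side, and values are listed in the order of library numbers 1 to 3.

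Mammalian chromosome ends consist of TTAGGG repeats that are covered by shelterin, a complex that keeps the ends from being treated as DNA breaks. TRF1 (Terf1) and TRF2 (Terf2) bind the double-stranded repeats, RAP1 (Terf2ip) binds TRF2, TIN2 (Tinf2) holds TRF1, TRF2 and TPP1 (Acd) together, and TPP1 carries the POT1 proteins to the single-stranded overhang and brings telomerase to the end. Mice have a pair of POT1 genes, Pot1a and Pot1b, where humans have 1. Telomerase extends the repeats with its reverse transcriptase TERT (Tert) on an RNA template that dyskerin (Dkc1) stabilizes, and RTEL1 (Rtel1) is a helicase that unwinds telomeric loops. In the oocyte, transcripts are made during growth and stored, and the fully grown oocyte is largely silent.

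A phosphodiesterase inhibitor raises cAMP, and the cAMP-dependent factor CREB binds the palindrome TGACGTCA, the cAMP response element. The reference promoters of the genes, 250 bases before to 50 bases after each annotated start, were therefore searched for these letters on both strands, which is 1 search because the motif is its own reverse complement. A window was available for 9 of the 10 genes (11 windows, RefSeq, GRCm38.p6). The motif was found for 2 of these 9 genes, in the only window of Tinf2 and the only window of Pot1a. It was found in 1.79% of all 32851 windows, a share of windows and not of genes. Whether the 2 genes exceed that share was not tested. The last 100 bases before the start and the first transcribed base are shown for these genes, with the motif in capitals, and for Terf2ip, the gene with the largest group difference below, whose window does not hold these letters. The motif begins 56 bases before the start of Tinf2, and in Pot1a it begins 7 bases before the start and ends on the first transcribed base. For both genes the annotated start of this transcript lies inside the outermost bounds of the gene given below.
Tinf2, chr14:55681817-55681917, minus strand: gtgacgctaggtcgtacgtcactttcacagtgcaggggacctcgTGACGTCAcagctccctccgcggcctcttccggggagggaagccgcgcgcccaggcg
Pot1a, chr6:25809218-25809318, minus strand: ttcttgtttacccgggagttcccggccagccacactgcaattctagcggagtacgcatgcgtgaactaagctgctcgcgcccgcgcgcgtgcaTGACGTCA
Terf2ip, chr8:112011259-112011359, plus strand: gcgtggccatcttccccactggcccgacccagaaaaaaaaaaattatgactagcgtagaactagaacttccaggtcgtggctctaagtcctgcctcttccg
A match is a description of the sequence and does not show that a factor binds there.

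Reads recovered from the FPKM steps gave library totals of 14112341 to 33641283, with control library 2 the smallest. At least 34 reads stood behind every value of the 10 genes, above the limit of 3 reads taken as measurable, which covers counting error only. Oocyte markers were high in every library, with a summed FPKM of 7058 to 12613 over 8 of 8 genes, lowest in control library 1, and each of the 8 genes was at 3.08 FPKM or more everywhere. Of the markers of other cells, 6 of 8 granulosa and cumulus genes, 5 of 6 theca and stroma genes, 1 of 3 endothelial genes and 3 of 3 erythrocyte genes were under 1 FPKM in all libraries. The rest of these lists were Cyp19a1 (7.37 to 15.7 FPKM over the libraries, highest in control library 1) and Nr5a2 (4.43 to 8.53) for granulosa and cumulus. For theca and stroma it was Dcn (0.370 to 1.41), and for endothelium Pecam1 (4.87 to 6.66) and Tek (0.620 to 2.15). The source of these transcripts was not tested. The macrophage list (8 genes) summed to 184 FPKM in control library 1 and to 81.0 to 102 FPKM in the other libraries, where C1qb made up most of the sum. Lyz2 had an FPKM of 66.4 in control library 1 and at most 0.573 elsewhere. Tyrobp (20.3 there and at most 0.308 elsewhere), Ctss (17.1 and 0.451) and Cd68 (5.29 and 1.60) were also highest there. So were C1qa (1.79 and 0.0302), Adgre1 (0.506 and 0) and Csf1r (0.437 and 0.252). C1qb went the other way, at 72.3 FPKM there and at least 79.2 FPKM elsewhere. Control library 1 was also the lowest of all libraries for Terf2ip, Tinf2, Tert and Rtel1, and the part of other cells in this was not tested. In these bulk samples, fewer cells of a type and less RNA per cell cannot be told apart.

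The transcript levels of the 10 genes formed a high and a low class. Acd, Terf1, Dkc1 and Tinf2 were at 24.1 FPKM or more in all 6 libraries, and the other 6 genes were at 6.31 FPKM or less in all of them. Acd was the most highly expressed, with a mean FPKM of 202 over the 6 libraries, above 94.6% of the 10340 genes tested. Terf1 (mean FPKM 71.0) followed, then Dkc1 (57.9), Tinf2 (37.9), Pot1a (4.72), Pot1b (4.32), Tert (2.82), Rtel1 (2.49), Terf2 (2.04) and Terf2ip (1.21). The mean of Acd was 2.84-fold that of Terf1, and that of Tinf2 was 8.03-fold that of Pot1a. Library values did not overlap between Acd and Terf1, between Dkc1 and Tinf2, or between Tinf2 and Pot1a, whereas those of all other neighbours in this order did. Pot1a exceeded Pot1b in 2 of the 6 libraries and Terf1 exceeded Dkc1 in 5.

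**Figure D1:**
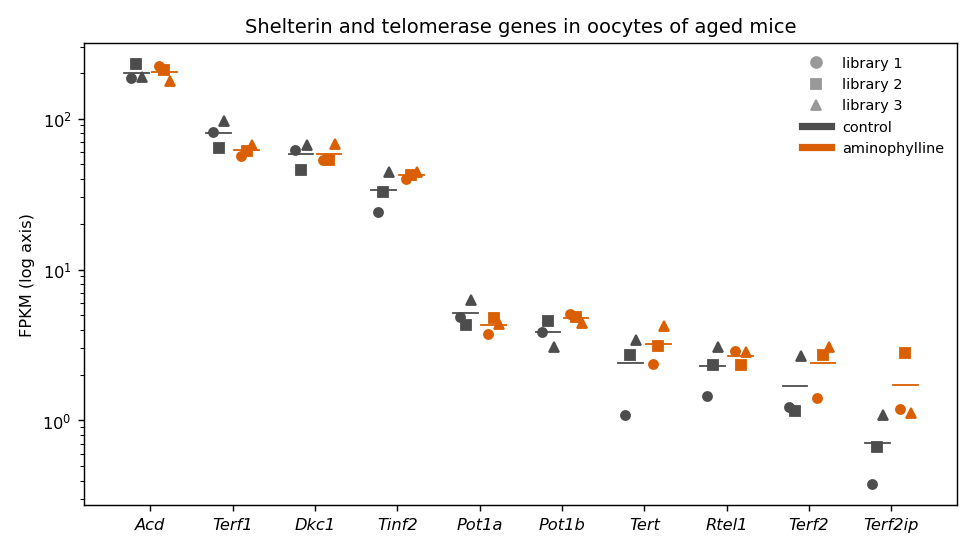
FPKM of the 10 shelterin and telomerase genes (log axis) in the 3 control (grey) and 3 aminophylline (orange) libraries, with the symbol shape giving the library number and the horizontal line the group mean. Acd, Terf1, Dkc1 and Tinf2 lie at 24.1 FPKM or more and the other 6 genes at 6.31 FPKM or less, and only Terf2ip shows no overlap between the groups.

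The levels were thus uneven among proteins that work in 1 complex. Of the summed FPKM of the 7 shelterin genes, Acd made up 54.9% to 68.0%, Terf1 17.2% to 28.3% and Tinf2 8.04% to 14.6%. The share of Terf2 was 0.347% to 1.02% and that of Terf2ip 0.127% to 0.852%, so the transcripts of TRF2 and of its partner RAP1 were both scarce beside that of TRF1. The summed FPKM itself was 300.1 to 341 in the control group and 302 to 330.1 in the aminophylline group, ranges that overlapped. Within that sum the share of Terf2ip was 0.127% to 0.320% in the control group and 0.361% to 0.852% in the aminophylline group, and the share of Pot1b was 0.904% to 1.37% and 1.46% to 1.54%, without overlap in either case. The shares of the other shelterin genes overlapped between the groups, and so did the FPKM of Pot1b itself. The FPKM of 12.5% of all genes tested did not overlap between the groups, which is a different measure from a share of a sum. These shares were not tested.

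To learn whether aminophylline altered these genes, the groups were compared with limma's moderated test on log2(FPKM + 1) over the 10340 genes that reached an FPKM of 1 in 3 or more libraries. All 10 genes passed this filter. After Benjamini-Hochberg adjustment over all genes tested, limma called 0 of the 10 genes, and 0 of the 10340 genes (0%), at an adjusted p under 0.05 (0 also with voom on the recovered reads), and the adjusted p of the 10 genes ranged from 0.682 to 0.991. When a block for the replicate number was added, limma called 47 of all genes and 0 of the 10 at an adjusted p under 0.05. At an unadjusted p under 0.05 it called 1 of the 10 genes, Terf2ip, beside 7.25% of all genes tested (4.41% higher and 2.84% lower with aminophylline). Higher genes made up 60.8% of these calls over all genes, and 34.3% to 49.1% under the other scalings between libraries. The same 1 gene was the one whose library values did not overlap between groups, beside 12.5% of all genes tested. Both shares are near those of all genes. With the block, Terf1 and Terf2ip, 2 of the 10 genes, had an unadjusted p under 0.05 in limma, beside 14.2% of all genes tested. In same-numbered pairs of libraries, Terf2, Terf2ip, Pot1b and Tert were higher with aminophylline in 3 of 3 pairs. Terf1 was lower in 3 of 3. How many of all genes tested agree in 3 of 3 pairs was not counted, so this is a description only. What same-numbered libraries share is not stated. The difference was above 0 for 8 genes and below 0 for Terf1 and Pot1a, with a median of 0.23 for the 10 genes and 0.10 for all genes tested. Acd and Dkc1 turned below 0 with a common sum, median centring, quantile normalization and voom, which left 6 genes above 0.

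**Figure D2:**
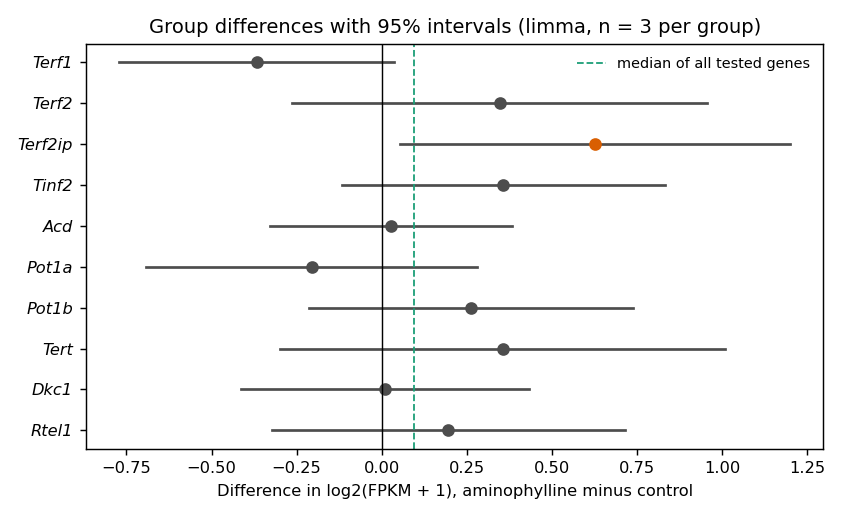
Difference in log2(FPKM + 1), aminophylline minus control, for each of the 10 genes (points, orange where limma's unadjusted p is under 0.05) with its 95% interval (lines) from limma with 3 libraries per group. Only the interval of Terf2ip, from 0.05 to 1.20, lies above 0, and the dashed line marks the median of all tested genes at 0.10.

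Terf2ip (NCBI gene 57321, chr8:112011359-112020528) encodes RAP1, the TRF2 partner that binds DNA weakly by itself. Its FPKM was 0.380, 0.669 and 1.09 in control libraries 1 to 3 and 1.19, 2.80 and 1.13 in the aminophylline libraries, from 46, 34 and 125 reads and 121, 250 and 124 reads. Every aminophylline library lay above every control library, but control library 3 was only just below aminophylline library 3, and aminophylline library 2 stood far above the rest. The group means were 0.714 ± 0.358 and 1.71 ± 0.951 FPKM (SD, n = 3), a 2.39-fold ratio. On the log2(FPKM + 1) scale, which understates the change of weakly expressed genes, the difference was 0.63 (standard error 0.26, limma adjusted p = 0.682), or 1.13 with 0.1 added in place of 1, and in the alternatives the limma adjusted p was between 0.180 and 0.999. The difference was 0.35 without aminophylline library 2, 0.48 without control library 1 and 0.62 without control library 2, and in each of these fits it no longer had an unadjusted p under 0.05. An antisense gene, Gm6793, not analysed here, shares 1604 bases of the annotated Terf2ip locus, and whether counting used strand is not given in the sources used here, so reads of the pair cannot be told apart.

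Terf1 (NCBI gene 21749, chr1:15805546-15844052), whose product TRF1 coats the double-stranded repeats and helps their replication, was the gene with the largest difference downward. Its FPKM was 81.0, 64.0 and 96.5 in the control group and 56.8, 60.7 and 66.9 in the aminophylline group. The groups overlapped only in that control library 2 lay below aminophylline library 3. The means were 80.5 ± 16.3 and 61.5 ± 5.13 FPKM (SD, n = 3), and the difference was -0.37 on the log2 scale (standard error 0.183, interval -0.77 to 0.04, limma adjusted p = 0.688). In the fit with the block, the limma adjusted p was 0.338 for Terf1 and 0.180 for Terf2ip. Without control library 2 the Terf1 difference was -0.52 and had an unadjusted p under 0.05 (limma adjusted p = 0.162). In that fit, 15.6% of all genes tested had an unadjusted limma p under 0.05.

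Terf2 (NCBI gene 21750, chr8:107069400-107096548), whose product TRF2 shapes the protective telomeric loop, had a difference of the opposite sign. Its FPKM was 1.24, 1.16 and 2.66 in the control group and 1.41, 2.70 and 3.09 in the aminophylline group. Control library 3 was close to aminophylline library 2, and the groups overlapped. The difference was 0.35 (standard error 0.277, interval -0.26 to 0.96, limma adjusted p = 0.760). Without control library 3 it was 0.59 and had an unadjusted p under 0.05 (limma adjusted p = 0.336), as had 14.3% of all genes tested in that fit. The FPKM ratio of Terf1 to Terf2 within a library, which does not depend on scaling between libraries, was 65.5, 54.9 and 36.2 in the control group and 40.2, 22.5 and 21.7 in the aminophylline group. Without an added value, the ratio of control library 3 lay below that of aminophylline library 1. On the log2 scale with 1 added to each FPKM, the mean ratio was lower by 0.71 in the aminophylline group. The added 1 makes the tested ratio depend on scaling. The exact two-sided permutation test gave p = 0.1, the smallest p that 3 libraries against 3 allow (adjusted over the 2 ratios tested, p = 0.2). With 0.1 added in place of 1, the difference was -0.88 and the exact p was 0.2.

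Tinf2 (NCBI gene 28113, chr14:55676208-55682159), the hub of the complex, had an FPKM of 24.1, 32.6 and 44.3 in the control group and of 40.1, 42.2 and 44.2 in the aminophylline group. The aminophylline libraries lay close together, near the top of the wide control range, and control library 3 was the highest of all. The means were 33.7 ± 10.1 and 42.1 ± 2.05 FPKM (SD, n = 3), and the difference was 0.36 (standard error 0.216, interval -0.12 to 0.83, limma adjusted p = 0.728). Without control library 3 it was 0.57 and had an unadjusted p under 0.05 (limma adjusted p = 0.297), as had 14.3% of all genes tested in that fit. Without control library 1 the Tinf2 difference was 0.14. The annotated Tinf2 locus shares 4512 bases with the antisense gene Gmpr2, which was at most at 0.319 FPKM.

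Acd (NCBI gene 497652, chr8:105698155-105701228), the gene of TPP1, had an FPKM of 185, 228 and 187 in the control group and of 222, 211 and 178 in the aminophylline group. The ranges lay within each other almost completely. The difference was 0.03 (standard error 0.161), and its 95% interval, -0.33 to 0.38 in limma, ran from a 1.26-fold decrease to a 1.30-fold increase. Of the 4272 genes with a mean FPKM over 10, Nrn1l, Mrps12 and Pinlyp had the log2(FPKM + 1) pattern most like that of Acd over the 6 libraries, with Pearson correlations of 0.991, 0.987 and 0.984 across libraries, given as a description. Like Acd, these 3 genes were at their highest in control library 2.

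The POT1 genes had differences of opposite sign. Pot1a (NCBI gene 101185, chr6:25743940-25809277), whose product restrains ATR signalling at telomeres, had an FPKM of 4.83, 4.30 and 6.31 in the control group and of 3.75, 4.78 and 4.36 in the aminophylline group. Pot1b (NCBI gene 72836, chr17:55651190-55712647), whose product limits trimming of the strand opposite the overhang, had 3.88, 4.59 and 3.09 FPKM in the control group and 5.09, 4.82 and 4.43 FPKM in the aminophylline group. Both pairs of groups overlapped, and control library 3 held the highest Pot1a and the lowest Pot1b value of all libraries. The differences were -0.21 (interval -0.69 to 0.28) and 0.26 (interval -0.21 to 0.74), with limma adjusted p of 0.805 and 0.761. Without control library 3 they were -0.0748 and 0.145. The FPKM ratio of Pot1a to Pot1b was 1.25, 0.936 and 2.04 in the control group and 0.738, 0.991 and 0.983 in the aminophylline group, and the log2 ratio with 1 added to each FPKM was lower by 0.47 on average (exact permutation p = 0.3). Both genes are related in sequence, so the authors' counting could have divided some reads between them. Tinf2 and Pot1a, whose promoter windows hold the TGACGTCA motif, had group differences of opposite sign, neither with a limma adjusted p under 0.05. Whether the motif bears on either difference was not tested.

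Tert (NCBI gene 21752, chr13:73626911-73649843) was transcribed at a low level in every library. Its FPKM was 1.09, 2.71 and 3.43 in the control group and 2.38, 3.09 and 4.20 in the aminophylline group, from 159 to 555 reads. Control library 1 was the lowest and aminophylline library 3 the highest, and the groups overlapped. The difference was 0.35 (standard error 0.297, interval -0.30 to 1.01, limma adjusted p = 0.764), and it was 0.04 without control library 1, the library with the lowest Tert value.

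Dkc1 (NCBI gene 245474, chrX:75095854-75109776), which also serves ribosomal RNA modification, had a mean FPKM of 57.9 ± 11.1 in the control group and 58.0 ± 8.43 in the aminophylline group (SD, n = 3). Its FPKM was 61.5, 45.5 and 66.7 in the control group and 53.4, 52.8 and 67.7 in the aminophylline group. The difference was 0.01, with an interval from a 1.33-fold decrease to a 1.35-fold increase (limma adjusted p = 0.991). Acd and Dkc1 were the 2 genes of the 10 whose interval excluded a 1.5-fold change in both directions. Rtel1 (NCBI gene 269400, chr2:181319711-181356616) had an FPKM of 1.45, 2.34 and 3.06 in the control group and of 2.90, 2.32 and 2.86 in the aminophylline group. Its difference of 0.20 (interval -0.32 to 0.71, limma adjusted p = 0.826) came to 0.0004 without control library 1.

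The spread was wider within the control group for most of these genes, as it was for most of all genes tested. The SD relative to the mean was larger in the control group for 9 of the 10 genes, all but Terf2ip, and for 76.4% of all genes tested. Control library 3 was the highest control library for 8 of the 10 genes, and for 51.2% of all genes tested. Acd and Pot1b, the other two, were highest in control library 2. Control library 1 was the lowest control library for 5 genes and control library 2, the library with the fewest reads, for 4. The spread of Tinf2 was 30.03% of its mean in the control group and 4.86% in the aminophylline group.

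**Figure D3:**
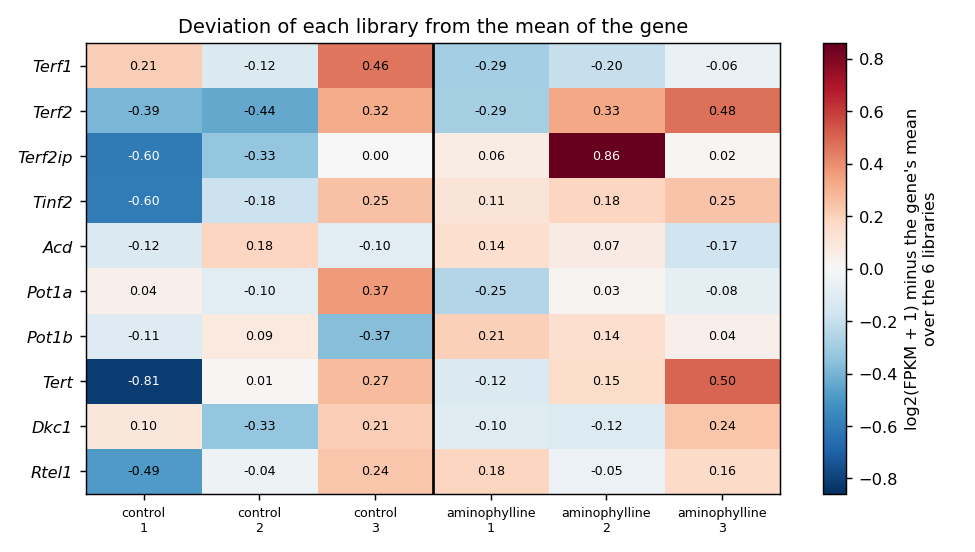
Deviation of log2(FPKM + 1) in each library (columns) from the mean of the gene over the 6 libraries (rows, 10 genes), with values printed in the cells. Control library 3 is above the mean for 7 of the 10 genes, control library 1 is low for Terf2, Terf2ip, Tinf2, Tert and Rtel1, and aminophylline library 2 carries the highest value of the plot, 0.86 for Terf2ip.

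Other genes that act at telomeres were compared in the same fit. Of 50 genes in 5 groups, 49 were matched by symbol and 36 passed the filter. Their median difference was 0.15. At an unadjusted limma p under 0.05, 2 were higher and 2 were lower, together 11.1% of the 36 beside 7.25% of all genes tested, and 0 had an adjusted p under 0.05. The group of telomerase assembly and maturation held 12 genes, which are the telomerase RNA Terc and factors that assemble or process it. Terc was not found by symbol, and 9 of the factors were tested. All 9 had a difference above 0, with a median of 0.31 beside 0.10 for all genes tested. The share of all genes above 0 was not counted. In limma, 2 of the 9, Gar1 and Ruvbl2, had an unadjusted p under 0.05. The 9 differences were also above 0 with a common sum, median centring, quantile normalization and voom. Their medians were then 0.277, 0.224, 0.221 and 0.239, beside 0.0669, 0.0134, 0.0102 and 0.0241 for all genes. With a common sum and with voom, 0 of the 9 had an unadjusted p under 0.05. Without control library 1 or without control library 2, 8 of the 9 differences were above 0.

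Gar1 (NCBI gene 68147), a core protein of the particle that holds dyskerin on the RNA, had an FPKM of 1.17, 0.929 and 1.38 in the control group and of 1.53, 2.43 and 2.27 in the aminophylline group (difference 0.50, standard error 0.206, limma adjusted p = 0.682). Ruvbl2 (NCBI gene 20174), an ATPase that takes part in assembling the particle, had 81.6, 84.3 and 87.1 FPKM in the control group and 105, 112 and 108 FPKM in the aminophylline group (difference 0.36, standard error 0.145, limma adjusted p = 0.682). The groups did not overlap for either gene. The unadjusted p was no longer under 0.05 for Gar1 without control library 1 or 2 or aminophylline library 2 or 3, nor for Ruvbl2 without control library 1 or any 1 aminophylline library. With all libraries rescaled to a common sum, and with voom, neither had an unadjusted p under 0.05 (limma adjusted p = 0.889 for both with a common sum), nor did Ruvbl2 with median centring (difference 0.28). Nop10 and Nhp2, partners of dyskerin and the most highly expressed genes of this group, had differences of 0.34 and 0.32 (limma adjusted p = 0.728 and 0.726), with FPKM of 169 to 280 and 98.4 to 163 over the libraries. Without control library 2 the differences were 0.57 and 0.49, with an unadjusted p under 0.05 (limma adjusted p = 0.127 and 0.189), and without control library 3 they were 0.21 and 0.19. The fit without control library 2 gave 15.6% of all genes tested an unadjusted limma p under 0.05.

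Among 12 genes of telomere replication and end processing, 9 were tested and 1 had an unadjusted p under 0.05. This was Prim1 (NCBI gene 19075), the catalytic primase subunit that starts lagging-strand synthesis. Its FPKM was 58.4, 48.1 and 53.6 in the control group and 46.3, 37.2 and 39.9 in the aminophylline group, without overlap. The difference was -0.37 (standard error 0.168, limma adjusted p = 0.685), and with a pseudocount of 0.1 its unadjusted p was no longer under 0.05, nor was it without control library 1 or 3 or any 1 aminophylline library. Ten1, of the CST complex that fills in the opposite strand, had a difference of 0.29 (limma adjusted p = 0.728). Without control library 2 it was 0.40 with an unadjusted limma p under 0.05, beside 15.6% of all genes tested in that fit.

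Of 11 shelterin partners and length regulators, 8 were tested and 0 had an unadjusted limma p under 0.05. Rad50, of the complex that senses DNA breaks, and Rif1, a regulator of replication timing and repair, were the most highly expressed, at 10.1 to 18.8 and 5.02 to 13.6 FPKM, with differences of 0.19 and 0.16 (limma adjusted p = 0.837 and 0.904). That of Rad50 was 0.0145 without control library 1 and 0.43 without control library 3.

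The largest absolute difference among the 36 genes was found in the group of chromatin and recombination (6 of 7 tested, 1 with an unadjusted p under 0.05). Zscan4d (NCBI gene 545913), of a zinc finger family that is known from early embryos and stem cells for elongating telomeres by recombination, had an FPKM of 9.62, 4.02 and 10.4 in the control group and of 4.14, 2.98 and 2.38 in the aminophylline group. Control library 2 lay just below aminophylline library 1, and otherwise the aminophylline libraries were lower. The means were 8.03 ± 3.49 and 3.17 ± 0.897 FPKM (SD, n = 3), and the difference was -1.05 (standard error 0.321, limma adjusted p = 0.661). When the replicate number was added as a block, the limma adjusted p was 0.0457, the lowest over the alternatives, of which the highest was 0.999. The unadjusted p stayed under 0.05 with each library left out, and not in the unmoderated model. The near-identical Zscan4c, chosen for mention after its values were seen, had 0.778 to 2.92 FPKM in the control group and 0.532 to 1.31 FPKM in the aminophylline group (difference -0.64, limma adjusted p = 0.685), and its unadjusted p was under 0.05 with the block and not without it. Reads of the Zscan4 genes could have been divided among them, so the values of each are uncertain. Atrx, a chromatin remodeller, had a difference of 0.02 (limma adjusted p = 0.984), which turned below 0 with a common sum, median centring, quantile normalization and voom.

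Of 8 genes that tether telomeres to the nuclear envelope in meiosis, 4 were tested and 0 had an unadjusted limma p under 0.05. Terb1 (NCBI gene 320022), which links TRF1 to the envelope, had 7.85, 4.77 and 8.49 FPKM in the control group and 5.58, 4.71 and 5.81 FPKM in the aminophylline group, a difference of -0.31 (limma adjusted p = 0.759). Without control library 2 it was -0.53 with an unadjusted p under 0.05 (limma adjusted p = 0.280), beside 15.6% of all genes tested in that fit. Without control library 3 the Terb1 difference was -0.17. Cdk2, a kinase found at meiotic telomeres, had a difference of -0.09 (limma adjusted p = 0.948).

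**Figure D4:**
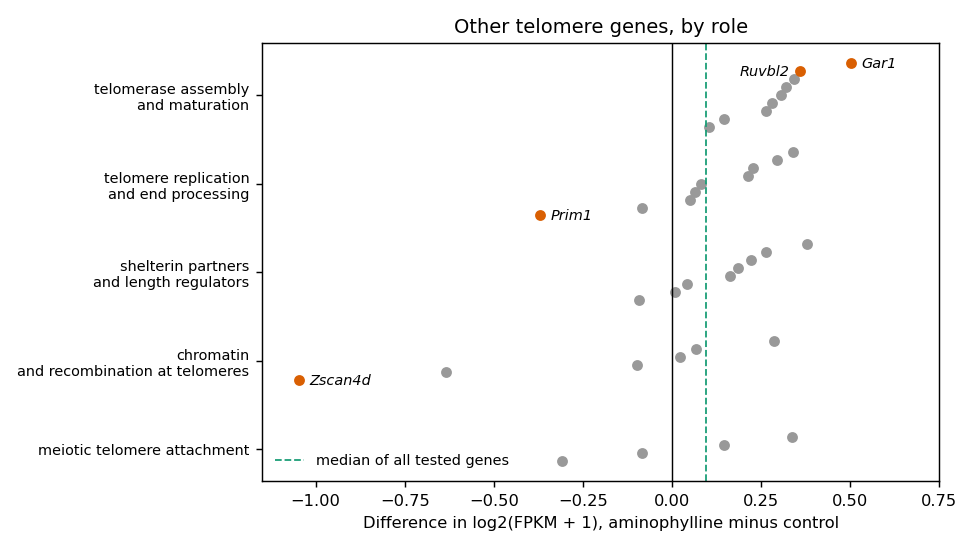
Difference in log2(FPKM + 1), aminophylline minus control, for the 36 tested telomere genes outside shelterin and telomerase, by role (1 point per gene, orange and named where limma's unadjusted p is under 0.05, height within a group only separates the points). Gar1 and Ruvbl2 lie at 0.50 and 0.36, Prim1 at -0.37 and Zscan4d at -1.05, and the dashed line marks the median of all tested genes at 0.10.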

How the data were processed

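The authors deposited 1 table of FPKM values, 1 column per library, without further scaling between libraries. The submitters' processing notes name GRCm38 and mm10. The aligner, counter, annotation and strand setting are not given in the sources used here. Whole reads were recovered from the ratios of a gene's FPKM between libraries, and 100% of the values of 22583 genes came out whole within 0.001 reads.

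Groups and replicate numbers were taken from the labels. log2(FPKM + 1) was tested with limma 3.58.1 (R 4.3.3, variance trend, two-sided) for genes reaching an FPKM of 1 in 3 or more libraries, with Benjamini-Hochberg adjustment over all genes tested and 95% intervals. Ratios were tested with exact permutations. The alternatives were a pseudocount of 0.1, no filter, a mean FPKM over 5, a common sum (TPM), median centring, quantile normalization, an unmoderated linear model (the counterpart of the test the study used), the replicate block, voom on the recovered reads (837 genes at an unadjusted p under 0.05 and 0 at an adjusted p under 0.05), and each library left out. Same-numbered libraries deviated together from their group means (correlations over genes of 0.138, 0.1395 and 0.552 for numbers 1 to 3), so the numbers, which come from the labels, meet the criterion set for pairs (each correlation over 0.1). The tests printed are unpaired unless the block is named. Correlations between libraries of different numbers are not given here, so these values do not show that the numbers mark pairs. No shared mice or day is stated. The code was tested on simulated data.

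The members and gene lists were chosen with earlier results of these data known. All 10 members were named, as were the 2 most highly expressed of the other telomere genes in each group and those with an unadjusted limma p under 0.05, except for 1 gene that is not reported here. Gene positions and promoters are RefSeq's on GRCm38.p6 and overlaps GENCODE's on GRCm38.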

Additional observations from a re-analysis of the deposited data

How the results depend on the processing

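No member had an adjusted p under 0.05 in limma under any of the 15 alternatives (smallest 0.162). Of 144 member values under the alternatives, 117 kept direction and side of the unadjusted threshold. Requiring a mean FPKM over 5 left 4 members to test.

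All genes at an adjusted p under 0.05 numbered 47 with the replicate block. At an unadjusted p under 0.05 there were 1404 genes without a filter, 1467 with the replicate block, and 329 to 1617 with 1 library left out (lowest without aminophylline library 2, highest without control library 2). The members at an unadjusted p under 0.05 numbered 0 without a filter, with a mean FPKM over 5 and with the unmoderated model, 2 with median centring, the replicate block and voom, and 0 to 3 with 1 library left out (0 without control library 1 or aminophylline library 2, and 3 without control library 3). The other telomere genes so called numbered 2 with a common sum, and 1 to 8 with 1 library left out, with 8 reached without control library 2 and 1 without control library 1 or aminophylline library 2. The shares of all genes tested that were so called were 5.48% without a filter, 8.92% with a mean FPKM over 5 and 6.55% with the unmoderated model. They were 5.55% with a common sum, 7.57% with median centring, 14.2% with the replicate block and 8.09% with voom. Without control library 1, 2 or 3 they were 3.57%, 15.6% and 14.3%, and without aminophylline library 1, 2 or 3 they were 6.81%, 3.18% and 4.14%.

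The difference of Terf1 passed an unadjusted p of 0.05 with median centring (-0.45), quantile normalization (-0.40), the replicate block (-0.37) and voom (-0.48), and ranged from -0.52 to -0.23 with 1 library left out. That of Terf2ip lost it without a filter (0.63), with quantile normalization (0.49) and with the unmoderated model (0.63), ranged from 0.35 to 0.78 with 1 library left out, and was 1.13 with a pseudocount of 0.1 and 1.12 with voom. Left-out libraries gave 0.20 to 0.59 for Terf2 and 0.14 to 0.57 for Tinf2.

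Acd turned to -0.0169 with a common sum, -0.0554 with median centring, -0.0237 with quantile normalization and -0.0687 with voom, and ranged from -0.0375 to 0.12 with 1 library left out. Dkc1 turned to -0.0325, -0.0713, -0.0361 and -0.0943 in the same order, and ranged from -0.15 to 0.12. Atrx turned to -0.0191, -0.0592, -0.0211 and -0.0859, and ranged from -0.20 to 0.24. With 1 library left out, Rif1 ranged from -0.16 to 0.46 and Cdk2 from -0.30 to 0.21. The cause was not tested.

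The replicate block changed the unadjusted calls of Terf1 and Zscan4c and the adjusted call of Zscan4d, and no other call of a gene named in the text. The log2 ratio differences of Terf1 to Terf2 (-0.89 to -0.59) and Pot1a to Pot1b (-0.68 to -0.22) kept their sign with each library left out. The higher share of calls was 60.8% as deposited, 49.1% with a common sum, 35.9% with median centring, 39.7% with quantile normalization and 34.3% with voom. Among the members, depth limits Terf2ip most, with 34 reads in control library 2, and of the other named genes Gar1 and Zscan4c had 17 and 25 reads there.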
